A study of Homo sapiens with 2 samples.

Results

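The 5 genes described here encode secreted proteins that hold Wnt ligands away from their receptors: the secreted Frizzled-related proteins SFRP1, SFRP4 and SFRP5, the related FRZB (also named SFRP3), and WIF1, Wnt inhibitory factor 1. They were taken from the 113 pathway genes of the Human Wnt Signaling Pathway membrane array by symbol alone, as every gene whose symbol starts with SFRP, plus FRZB and WIF1. SFRP2 was not on the array by symbol. The question was whether each of them stood above the blank spots in SW480 cells, and whether that differed when inducible nitric oxide synthase was overexpressed.

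SW480 cells were derived from a human colorectal adenocarcinoma. The GFP group was SW480 with an empty vector that carries green fluorescent protein only, and the hiNOS group was SW480 that overexpressed hiNOS together with GFP. Both were sorted on GFP, grown on as stable lines and measured on 1 array each, and whether a line was 1 clone is not given in the sources used here. None of the 11 genes set aside as checks was on the array by symbol. These were NOS2, which encodes the enzyme, and markers of colorectal epithelium (EPCAM, CDH1, KRT18, KRT20, VIL1, CDX2) or fibroblasts. Neither the overexpression nor the tissue label could therefore be checked.

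Wnt ligands are secreted glycoproteins that bring a Frizzled receptor and an LRP co-receptor together, which spares beta-catenin from degradation. Secreted Frizzled-related proteins carry a cysteine-rich domain like that of Frizzled and can bind the ligand outside the cell, while WIF1 binds ligands through a WIF domain of its own. In colorectal cancer SFRP1, SFRP5 and WIF1 are known for loss of transcription with methylation of CpG sites in the promoter. SW480 carries a truncated APC, a scaffold that acts downstream of these antagonists.

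On the array these genes occupied positions 44 (FRZB), 79 (SFRP1), 80 (SFRP4), 81 (SFRP5) and 93 (WIF1). All 5 array accessions were matched to a gene of the same symbol in the RefSeq annotation of GRCh38.p14. FRZB lies on chromosome 2 from 182833275 to 182866637, and SFRP4 on chromosome 7 from 37905932 to 37916817. SFRP5 lies on chromosome 10 from 97766751 to 97771999, and WIF1 on chromosome 12 from 65050626 to 65121305.

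Promoters were available in RefSeq (GRCh38.p14) for FRZB, SFRP4, SFRP5 and WIF1, as 250 bases before to 50 bases after the gene start. The 3 printed here belong to SFRP5, whose spot was called present on both arrays, to WIF1, whose spot lay under the blanks on both, and to FRZB, whose call differed between the arrays. Each is on the minus strand of its chromosome and is written 5′ to 3′ along the gene, with CpG sites in capitals. Methylation was not measured in this study.
SFRP5, chr10:97771950-97772249: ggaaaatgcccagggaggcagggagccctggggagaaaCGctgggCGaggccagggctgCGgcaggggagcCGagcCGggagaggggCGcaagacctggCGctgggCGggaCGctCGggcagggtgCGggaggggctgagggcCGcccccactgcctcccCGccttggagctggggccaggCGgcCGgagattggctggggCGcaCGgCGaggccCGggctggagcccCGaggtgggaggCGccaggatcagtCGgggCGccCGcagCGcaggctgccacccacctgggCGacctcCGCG
WIF1, chr12:65121256-65121555: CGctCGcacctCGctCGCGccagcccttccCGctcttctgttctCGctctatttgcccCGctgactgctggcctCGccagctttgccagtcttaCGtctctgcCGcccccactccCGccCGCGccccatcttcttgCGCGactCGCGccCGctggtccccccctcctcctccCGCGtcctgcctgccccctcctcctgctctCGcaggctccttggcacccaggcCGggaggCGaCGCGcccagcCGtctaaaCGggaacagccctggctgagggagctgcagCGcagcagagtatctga
FRZB, chr2:182866588-182866887: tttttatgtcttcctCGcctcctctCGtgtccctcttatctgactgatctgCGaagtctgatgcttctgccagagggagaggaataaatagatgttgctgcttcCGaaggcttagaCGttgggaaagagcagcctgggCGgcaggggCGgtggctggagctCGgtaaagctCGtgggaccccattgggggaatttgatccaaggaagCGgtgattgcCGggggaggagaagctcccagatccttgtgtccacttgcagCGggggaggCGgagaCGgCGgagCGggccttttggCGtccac

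The WIF1 and SFRP5 promoters held 29 and 28 CpG sites. SFRP4 had 23 CpG sites and FRZB 17. All 4 counts were above the median of 14 over the 35116 promoters of the table. Over the 81 array genes with a promoter in it the median was 28, so FRZB and SFRP4 were below it, SFRP5 was equal to it and WIF1 was 1 site above it. GC content was 69.7% for WIF1, 77.3% for SFRP5, 66.3% for SFRP4 and 58.3% for FRZB. The core of the TCF/LEF motif, CTTTG, searched on both strands (CTTTG or CAAAG), was found once in the WIF1 promoter, from base 81 of the sequence above, and not in the other three windows. It occurs in 47.5% of all promoters of the same length.

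Each value below is the average density of 1 spot in scanner units, with no background removed. The blanks, which hold no probe, averaged 12750 units with GFP, where single spots had 12722 and 12779, and 12336 with hiNOS, with single spots at 11708 and 12964. The 6 negative controls (both blanks, a plasmid spot and 3 artificial-sequence spots) ran from 11986 to 12779 units with GFP and from 11408 to 13214 with hiNOS. The authors' software called a spot present from a threshold that lay between 17897 and 18982 units with GFP and between 17769 and 18525 with hiNOS, as given by the brightest absent and the dimmest present gene. Probes differ in how strongly they hybridise, and related genes could cross-hybridise, so each spot is set against the controls, and no order of transcript levels is read from spots of different genes. With 1 array in each group no difference between the groups has replicate error or a test.

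SFRP4 and SFRP5 stood far above the controls on both arrays, SFRP1 lay just above them, and WIF1 lay among them. FRZB was called present with GFP and absent with hiNOS. Of the 5 genes, 3 were called present on the GFP array, where 46.9% of the 113 genes were, and 2 on the hiNOS array, where 45.1% were. The 2 genes absent on both arrays compare with 47.8% of all genes. These shares are near the background, so the calls do not set the 5 genes apart from the rest of the array.

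**Figure D1:**
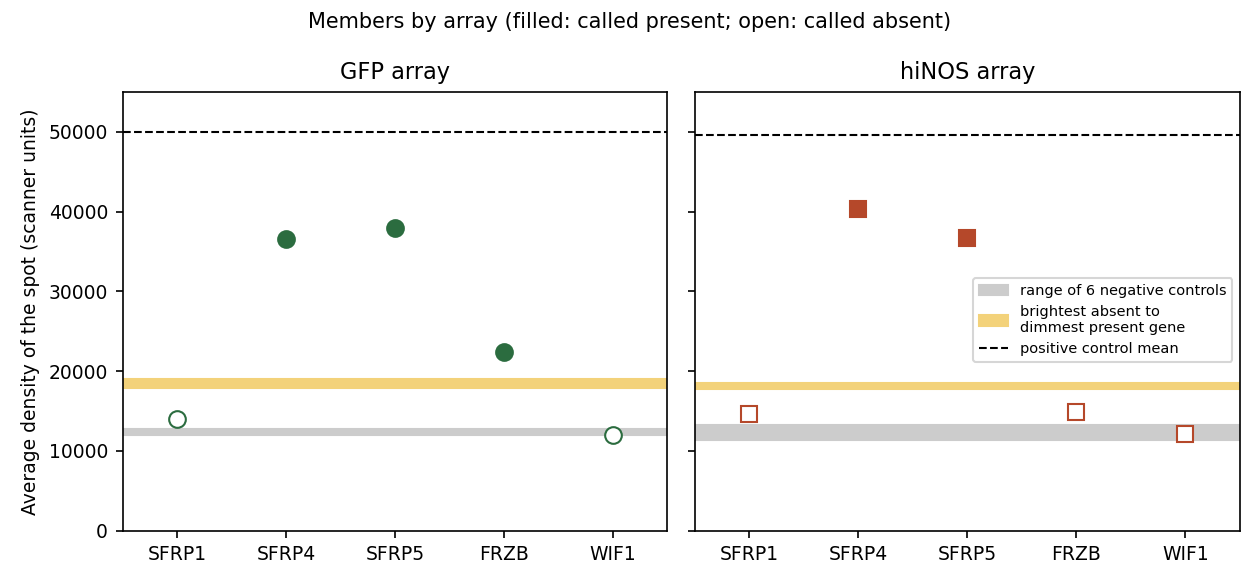
Average density of the 5 spots (vertical axis, scanner units from 0) on the GFP array (left, circles) and the hiNOS array (right, squares), filled where the spot was called present. The grey band spans the 6 negative controls, the yellow band runs from the brightest absent to the dimmest present gene, and the dashed line is the positive control. FRZB lies above the yellow band at 22395 units with GFP and below it at 14870 with hiNOS.

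SFRP4 had 36551 units with GFP and 40378 with hiNOS. SFRP5 had 37886 units with GFP and 36637 with hiNOS. Both spots kept their call on both arrays, at 2.87 and 3.27 times the mean of the blanks for SFRP4 and 2.97 times on each array for SFRP5. They reached between 73.0% and 81.5% of the positive control, so neither was at the bright end of the film, and neither was called bleeding.

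SFRP1 had 13985 units with GFP and 14613 with hiNOS and was called absent on both arrays. It was nevertheless brighter than all 6 negative controls on each array, by 1206 units over the brightest of them with GFP and by 1399 units with hiNOS. Its spot lay between the controls and the threshold of the presence call, at 73.7% and 78.9% of the dimmest present gene. The 6 controls did not span the dimmest spots, which had 10394 units with GFP and 10508 with hiNOS, under every control. A place above 6 controls therefore does not show that the SFRP1 spot held transcript. The bright SFRP4 spot has the next position, 80. Beyond SFRP4 and SFRP5, SHFM3 (82) had 14271 and 14363 units, while SENP2 (78) had 12372 and 10908. WIF1 (93) lay next to TLE4 (92), with 32539 and 17654 units, and WISP1 (94), with 12400 and 11622. Spill from a bright neighbour was not tested. Since SFRP1 was absent on both arrays no fold is given. Its density was 628 units higher with hiNOS, against a gap of 1256 units between the 2 blanks of that same array.

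WIF1 had 12022 units with GFP and 12136 with hiNOS and was called absent on both arrays. Relative to the mean of the blanks these densities were -728 units with GFP and -200 with hiNOS. With GFP it was brighter than 1 of the 6 negative controls, and with hiNOS than 3 of them, while the spot AS1 had the same density of 12136 units. The WIF1 spot was not told apart from spots without a human target on either array.

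With the presence call replaced by the brightest negative control, 4 of the 5 genes (all but WIF1) stood above that control on both arrays, beside 72.6% of all genes with GFP and 62.8% with hiNOS. The mean of the negative controls plus 3 SD gave the same 4 genes. The share of all genes above it was not counted, so this count does not set the 5 genes apart. FRZB on the hiNOS array, although called absent, was still 1656 units above the brightest negative control.

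**Figure D2:**
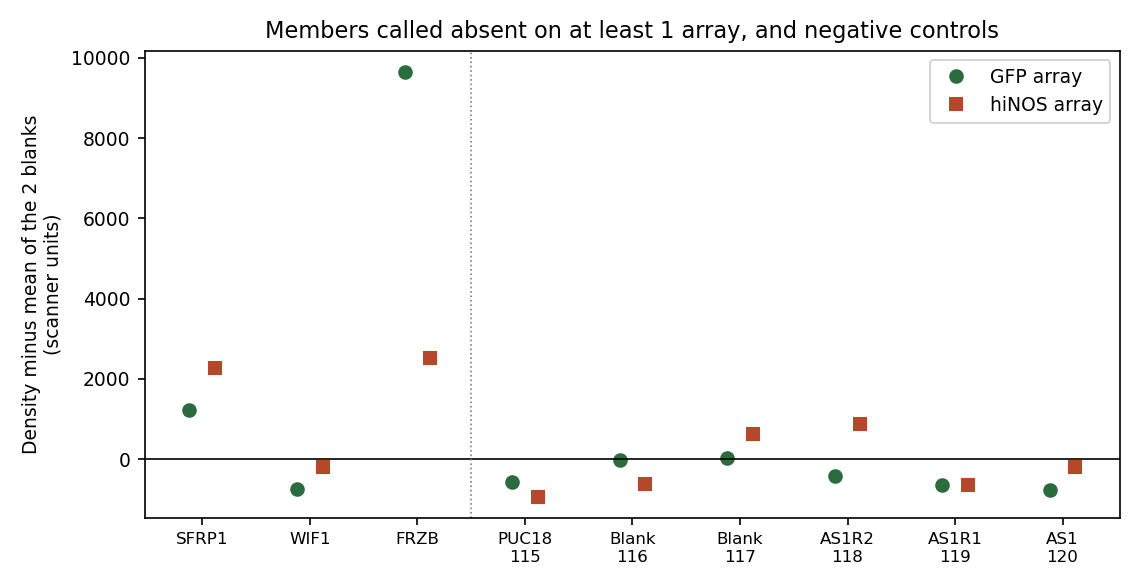
Density minus the mean of the 2 blanks of the same array (vertical axis, scanner units) for SFRP1, WIF1 and FRZB, left of the dotted line, and for each of the 6 negative controls with its array position, for the GFP array (circles) and the hiNOS array (squares). SFRP1 lies at 1235 and 2277 units and FRZB at 9645 and 2534, above all controls, and WIF1 lies at -728 and -200, among them.

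FRZB had the largest difference in density between the arrays among the 5 genes, -7524 units (hiNOS minus GFP). FRZB encodes an antagonist with the cysteine-rich domain of the family and is best known from cartilage. Its spot went from 22395 units with GFP to 14870 with hiNOS, which is 118% of the dimmest present gene on the first array and 80.3% on the second. With GAPDH and ACTB of the same array as reference, the normalization of the series text, the hiNOS value of FRZB was 0.667 of the GFP value (log2 ratio -0.58). These reference spots averaged 49004 units with GFP and 48775 with hiNOS. The positive control averaged 50047 and 49565, so the reference lay near the bright end of the film. Whether it could register a difference in loading between the arrays was not tested. Because the FRZB spot was absent on the hiNOS array, only a bound is measured there, and FRZB was at least 1.20-fold lower on that scale. This bound takes the dimmest present gene of the hiNOS array in place of the dimmer FRZB value. It was smaller with the median gene as reference (1.13-fold) and with quantile normalization (1.09-fold). The genes at the array positions on either side of FRZB, both called absent on both arrays, also had lower density with hiNOS. FRAT2 (position 43) had 16726 units with GFP and 12557 with hiNOS, a log2 ratio of -0.41. FSHB (position 45) had 11801 and 10594 units. Whether position on the membrane played a part was not tested. In a bulk extract, fewer cells with the transcript and less transcript per cell cannot be told apart, and with 1 array for each line neither can array and line.

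A ratio of densities understates a change, because both densities include the density of the blanks. After the mean of the blanks was subtracted, FRZB had 9645 units with GFP and 2534 with hiNOS. The measured ratio was then 3.83-fold lower, and the bound at least 1.57-fold lower. The measured fold leaned on the blank chosen, since it was 3.12 with the dimmer blank of each array alone and 4.99 with the brighter one alone, while the bound moved from 1.45 to 1.71. The authors' deposited table lists FRZB as under-expressed at a ratio of 0.277, together with 20.4% of all genes.

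FRZB passed the presence call through the GFP array only, as did 8 of the 113 genes (7.08%), so its lower value with hiNOS goes with that pattern of calls. Among those 8 genes FRZB had the fifth lowest ratio of density. The 3 genes whose densities over both arrays were nearest to FRZB, by distance in log2 density, were DAAM2 (0.05), PPP2CA (0.09) and MYC (0.10). This distance, over 2 arrays, holds the brightness of each probe as well as the difference between the arrays, and is given as a description only. DAAM2, a formin gene, had 22445 and 14378 units, PPP2CA, a catalytic subunit of PP2A, had 21117 and 14570, and MYC had 23002 and 15870. Of the 59 genes present on at least 1 array, 6 had a lower measured ratio of density than FRZB, and 10 had a lower ratio once bounds replaced the measured ratios.

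**Figure D3:**
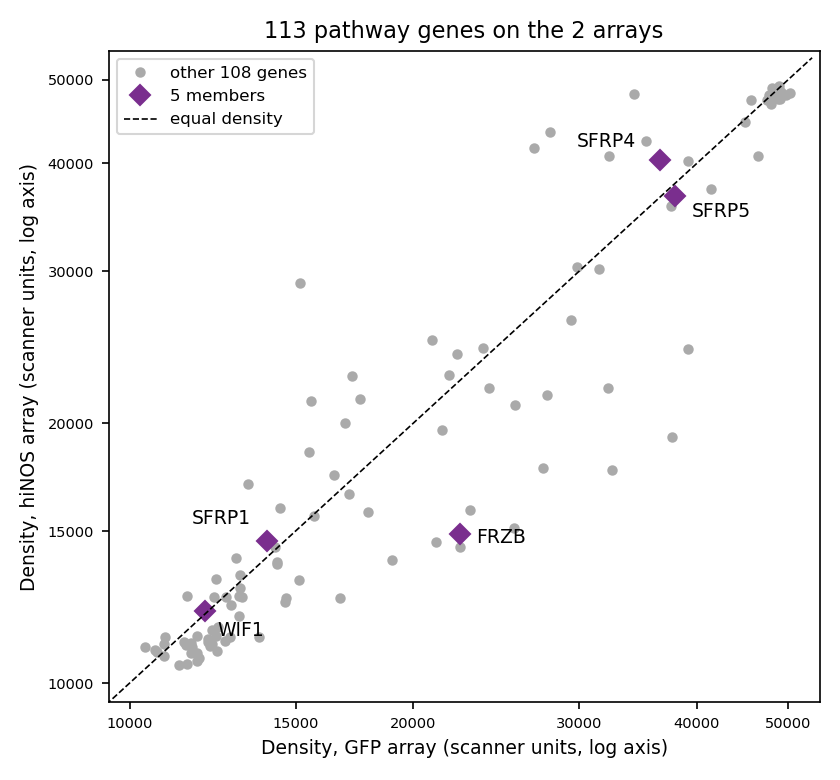
Density on the GFP array (horizontal axis) against density on the hiNOS array (vertical axis), both log axes in scanner units, for the 113 pathway genes, with the 5 members as diamonds and a dashed line of equal density. SFRP1, SFRP4, SFRP5 and WIF1 lie near the line, and FRZB lies below it at 22395 and 14870 units.

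SFRP4 and SFRP5 both bind Wnt ligands, and SFRP5 is the closer relative of SFRP1. SFRP4 had a log2 ratio of 0.15 by density over GAPDH and ACTB, which is 1.11-fold higher with hiNOS, and 1.17-fold higher after subtraction of the blanks. SFRP5 had a log2 ratio of -0.04, or 1.03-fold lower, and was 1.04-fold lower after subtraction. Its sign turned with the deposited normalized values (0.03) and with the median gene as reference (0.05), so no direction is given for SFRP5. SFRP4 kept a positive ratio under all 13 settings tried, but the lowest of them, quantile normalization, gave 0.02.

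The ratios of the members were set beside ranges from dim spots of the same arrays. The 6 negative controls had log2 ratios from -0.11 to 0.11, and the 54 genes absent on both arrays had log2 ratios from -0.41 to 0.36. SFRP5 lay inside both ranges, and SFRP4 lay outside the first and inside the second. FRZB lay outside both by its measured ratio, and inside the second at its bound (-0.27). None of these ranges is replicate error, and they come from spots dimmer than SFRP4 and SFRP5.

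The difference between the log2 ratios of SFRP4 and SFRP5 does not depend on the reference spots. It was 0.19 by density and 0.29 after subtraction of the blanks, and ran from 0.17 to 0.29 over the 13 settings. Duplicate spots of 1 sequence give the error of such a difference only at the ends of the range: the log2 ratios of the paired spots of HSPCB, ACTB and the positive control BAS2C differed by 0.01, 0.03 and 0.01, and those of the blanks by 0.14. No duplicate lay at the density of SFRP4 and SFRP5. By the same distance the nearest genes to SFRP4 were KREMEN2 (0.09), TCF7L2 (0.10) and SFRP5 (0.15), and the nearest to SFRP5 were TCF7L1 (0.04), FZD9 (0.13) and TCF7L2 (0.14).

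**Figure D4:**
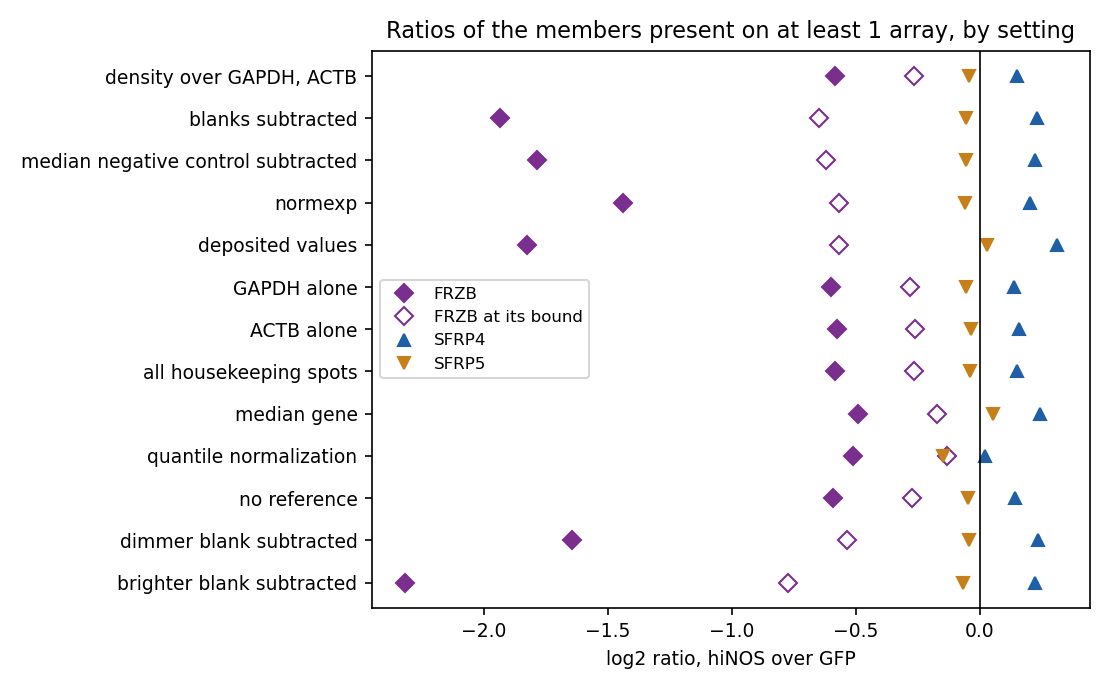
log2 ratio of hiNOS over GFP (horizontal axis) for FRZB, SFRP4 and SFRP5 under the 13 settings for background and reference (rows), with FRZB also at its bound (open diamonds). FRZB lies between -0.49 and -2.32 as measured, SFRP4 between 0.02 and 0.31, and SFRP5 between -0.15 and 0.05 on either side of 0.

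By density 0 of the 3 genes present on at least 1 array were 2-fold higher and 0 were 2-fold lower with hiNOS, beside 0% of the 59 such genes in each direction. After subtraction of the blanks FRZB alone was 2-fold lower as measured, beside 18.6% of the 59 genes, and 0 of the 3 were 2-fold lower at bounds, beside 10.2%. None was 2-fold higher after subtraction, beside 10.2% of the 59 genes as measured and 5.08% at bounds. The median log2 ratio of density of the 3 genes was -0.04, which is the value of SFRP5, and the median of the 59 genes was -0.01. Some of the 59 genes lay close to the positive control on both arrays. Whether the bright end of the film held their ratios, and this median, near 0 was not tested.

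The authors' deposited table lists WIF1, too, as under-expressed with hiNOS, at a ratio of 0.289, and marks it as absent on both arrays. The density of WIF1 was 114 units higher with hiNOS, not lower. The listed ratio in the authors' deposited table is that of 2 negative numbers, -728 units with GFP and -200 with hiNOS after subtraction of the blanks, each divided by the scale of its array. It was recomputed from the densities to the listed value. Of the 39 genes in the authors' deposited table, 7 had density under the blanks on both arrays, and WIF1 was the only one of the 7 listed as under-expressed. The other 6 (DAAM1, MARK4, SENP2, WISP1, WNT11 and WNT4) were listed as over-expressed. Under the mean of the blanks on both arrays lay 23.9% of all 113 genes. No fold is given here for WIF1.

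The ligands and receptors that these antagonists act on, and the Dickkopf and Kremen genes, were counted in the same way. The 6 Dickkopf and Kremen genes form the list named other extracellular antagonists, although Kremen genes encode receptors. Of these 6 genes, 3 were present on both arrays and 3 on neither, and 0 were 2-fold higher or lower after subtraction. Among these the measured log2 ratio of density was highest for KREMEN2, a receptor for Dickkopf proteins (0.27), and lowest for DKK4, which blocks LRP co-receptors (-0.36). Of the 19 Wnt ligands 11 were present on at least 1 array, 0 were 2-fold higher and 2 were 2-fold lower after subtraction, WNT5A and WNT3, beside 10.2% of the 59 genes higher and 18.6% lower as measured, and 10.2% lower at bounds. With lists this short, these counts are not read as different from the background. WNT7B had the highest log2 ratio of density among the ligands (0.12). WNT3 was 2.03-fold lower after subtraction and 1.93-fold on the deposited values, and WNT5A, absent with hiNOS, was at least 2.08-fold and at least 1.97-fold lower. Of the 12 Frizzled and LRP receptors 4 were present on at least 1 array and 0 were 2-fold higher or lower, with log2 ratios of density from -0.14 for FZD9 to 0.34 for FZD2. Absent on both arrays were 3 of the 6 Dickkopf and Kremen genes, 8 of the 19 ligands and 8 of the 12 receptors, beside 47.8% of all 113 genes. These counts were not tested and are not read as different from that share.

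**Figure D5:**
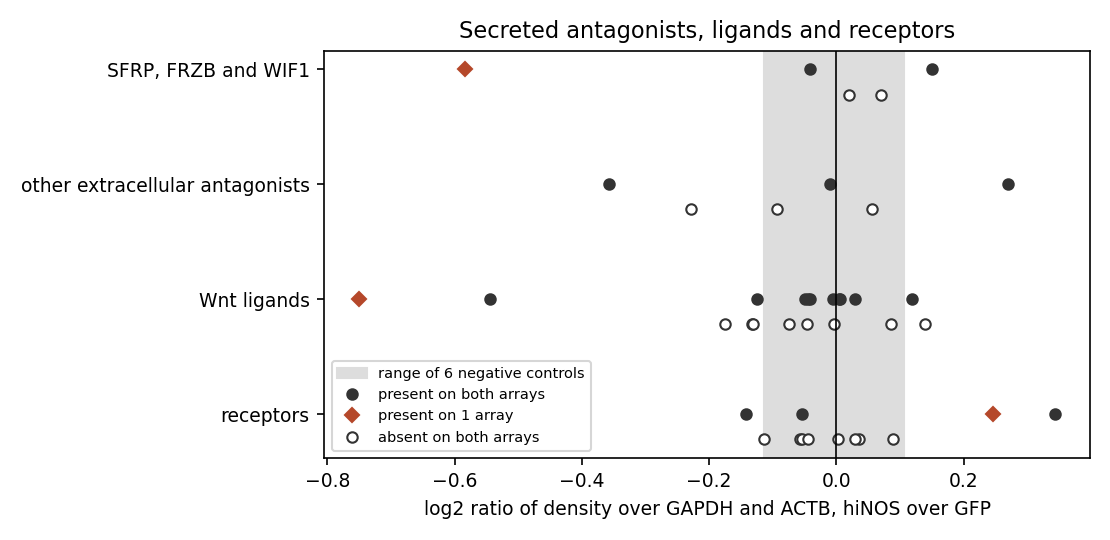
log2 ratio of density over GAPDH and ACTB, hiNOS over GFP (horizontal axis), for each gene of 4 lists (rows), as filled circles where present on both arrays, diamonds where present on 1 and open circles, set slightly lower, where absent on both. The grey band spans the 6 negative controls. FRZB at -0.58 is the lowest of its row, and WNT5A at -0.75 is the lowest of the ligands.

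The median log2 ratio of density was -0.01 for the Dickkopf and Kremen genes, -0.04 for the ligands and 0.10 for the Frizzled and LRP receptors, or 0.01 for these receptors with FZD10 at its bound. None of these lists was tested, and nothing particular to the secreted Frizzled-related genes is read from them.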

How the data were processed

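RNA of 2 SW480 lines was hybridised to 2 Oligo GEArray membranes, 1 array in each group. The series text speaks of more than 1 RNA preparation with replicate assays, but only these 2 arrays were analysed here. Per the series text, the authors read the scans with GEArray Expression Analysis Suite 2.0. What they deposited as intensity is a spot's average density, for 128 spots, and per the file headers no background was removed. Every density was a whole multiple of 7.14 units (tolerance 0.001 of a step), so single values have that resolution. A further deposited intensity table was recomputed as density less the mean of the blanks over an interquartile mean of all spots, to within 0.005. On that scale the authors' deposited 2-fold table gives hiNOS over GFP, and it was treated as a score, since values below 0 occur. Presence and bleeding calls were used as deposited: per the file headers, a spot is absent below 1.5 times a mean local background taken over the lower 75 percentile of non-bleeding spots. That cutoff was not given, so it was bracketed by the genes on either side.

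Densities were scaled to the average of the 3 spots for GAPDH and ACTB, and log2 ratios of hiNOS over GFP were taken (Python 3.11.15, pandas 2.3.3). The fold of a gene absent on 1 array was bounded by setting its dim value to that of the dimmest present gene there, where that was brighter. Background subtraction, normexp (limma 3.58.1, offset 50), other references and quantile normalization were alternatives. The functions were run on simulated densities without noise, which checks their arithmetic only. The named genes are all members, the 3 nearest genes in log2 density to each member present on at least 1 array, and the highest and lowest gene of each list. Genes at the array positions next to members were named with their density. WNT3, FZD10 and the genes under the blanks in the authors' list were named after their values were seen. Members, lists and settings were chosen with earlier results of these data known. The arrays' number limits the precision, and no column of per-sample values was left unmapped.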

Additional observations from a re-analysis of the deposited data

How the results depend on the processing

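No paired analysis was possible because GFP and hiNOS have 1 array each, and no replicate could be left out. The median log2 ratio of the 3 genes present on at least 1 array was -0.04, and ran over 14 alternatives from -0.15 with quantile normalization to 0.052 with the median gene as reference and 0.054 over the genes present on both arrays, where FRZB drops out. The other 11 alternatives moved it by less than the SD of the negative controls, and 2 of them, the deposited values (0.028) and no filter on dim spots (0.020), turned its sign within that SD. The count of genes 2-fold lower stayed at 0 at bounds under every setting tried, and was 1 (FRZB) at measured ratios with the blanks subtracted, the median negative control subtracted, normexp, the deposited values, and the dimmer or the brighter blank alone, the last 2 and the use of measured ratios chosen after the data were seen. With the mean of the blanks subtracted, 18.6% of the 59 genes were 2-fold lower as measured. The share was not counted under the other settings with background removed, so their counts are not read as particular to FRZB. A background under both densities pulls a ratio towards 1 by construction. The count 2-fold higher was 0 throughout, and a threshold of 1.5-fold at bounds on density changed neither count. With the mean of the blanks subtracted, FRZB passed 1.5-fold at its bound (1.57-fold lower). Genes called present on the hiNOS array rose from 2 to 4 with the brightest negative control, or the mean of the negative controls plus 3 SD, in place of the deposited call, because both lie under its threshold. On the GFP array they went from 3 to 4. Above the brightest negative control lay 72.6% of all 113 genes with GFP and 62.8% with hiNOS. The share above the mean plus 3 SD was not counted, so the count under that rule is not read further. Against the blanks alone the 4 genes above every negative control stayed 4 on both arrays. The measured log2 ratio of FRZB was negative under all 13 settings. The median of the 59 genes moved by at most 0.09 under any of them. Signal over background limits SFRP1 and WIF1, whose differences between arrays lie within the gap of the 2 blanks on the hiNOS array.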

Other observations

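The densities step by 7.14 units, so spots can share a value. On each array 3 pairs of gene or negative-control spots held the same density to every digit, among them WIF1 and the artificial-sequence spot AS1 with hiNOS. In steps, WIF1 differed by 16 between the arrays, SFRP1 by 88, SFRP5 by -175, SFRP4 by 536 and FRZB by -1054 (hiNOS minus GFP).

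A further table holds 1 value for each spot as the authors' mean over both arrays, with the dimmest spot subtracted and housekeeping positions as reference. In it SFRP4 had 0.728, SFRP5 had 0.697, FRZB had 0.212, SFRP1 had 0.100 and WIF1 had 0.0423. It cannot show the difference of FRZB between the arrays, since it averages them.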
